A study of Homo sapiens with 12 samples.

Results

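The genes that encode the subunits of the respiratory chain and of the mitochondrial ATP synthase were examined in human acute myeloid leukaemia cells treated with selinexor. Members were all rows of the OCI-AML2 and MOLM-13 count tables whose symbol belongs to a subunit family of NADH dehydrogenase (complex I), succinate dehydrogenase (complex II), the cytochrome bc1 complex (complex III), cytochrome c oxidase (complex IV) or ATP synthase (complex V), together with the 13 protein-coding genes of mitochondrial DNA. The rule found 100 rows, the same in both tables, of 17099 rows in OCI-AML2 and 16820 in MOLM-13. Of these, 81 were nuclear genes for subunits and 13 were mitochondrial genes. The other 6 rows were 3 noncoding neighbours, 1 readthrough transcript and 2 copies of subunit genes, and they were kept apart. NDUFA4 and NDUFA4L2 were counted with complex IV, in which NDUFA4 is now placed.

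OCI-AML2 and MOLM-13 are established leukaemia lines. Each was cultured for 36 h with vehicle (DMSO) or with selinexor, an inhibitor of the nuclear export receptor XPO1, at 200 nM in OCI-AML2 and 75 nM in MOLM-13. Each of the 4 groups had 3 libraries, which the labels call biologically independent, sequenced after poly(A) selection without strand information. Since the lines received different doses, line and dose cannot be told apart. The amount of RNA per cell and the number of cells cannot be told apart in such bulk samples, so every level below is relative to the other transcripts of the same library.

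The respiratory chain is built from the products of both genomes. Complexes I, III and IV and ATP synthase combine subunits made in the cytosol and imported into mitochondria with hydrophobic core subunits translated on mitochondrial ribosomes, and complex II is wholly nuclear-encoded. Complexes I and II pass electrons through coenzyme Q to complex III, from where cytochrome c carries them to complex IV, and the proton gradient that complexes I, III and IV generate drives ATP synthase. The nuclear genes are transcribed singly, many with help from the factors NRF1, GABP and YY1. The mitochondrial genes are transcribed as long polycistronic RNAs by POLRMT with TFAM and are then cut at the tRNAs that separate most of them. Leukaemic blasts are known for their reliance on oxidative phosphorylation.

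Total counts ranged from 8114892 to 11769061 per library, so that 3 counts corresponded to 0.255 to 0.37 CPM, the counts scaled to a common library total. XPO1, the drug's target, rose in both lines, by 0.63 in OCI-AML2 and 0.66 in MOLM-13 on the log2 scale. The 8 myeloid markers (such as PTPRC, CD33 and SPI1) were all above 5 CPM on average in both lines, and their summed level was higher with selinexor (3055 to 3266 CPM in OCI-AML2 vehicle libraries against 11569 to 11844 under the drug, 1393 to 1414 against 3088 to 3121 in MOLM-13). The 8 did not move alike. Their log2 fold changes ran from -0.53 (MPO) to 2.47 (LYZ) in OCI-AML2 and from 0.093 (PTPRC) to 3.04 (LYZ) in MOLM-13. Of the 6 lymphocyte markers only NCAM1 exceeded 5 CPM in either line, at a list sum of 57.7 to 97.1 CPM in OCI-AML2 and 105 to 134 CPM in MOLM-13. None of the 5 epithelial, fibroblast and liver markers did. The part of these shifts in the results below was not tested.

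The OCI-AML2 vehicle group was uneven for some members. In 13 of 76 nuclear subunit genes tested (17.1%), the highest of its 3 libraries exceeded the lowest more than 1.5-fold, against 10.7% of all 12086 genes tested, and in all 13 the lowest was library 2. Among all genes tested, 1289 spread so far, and library 2 was the lowest in 415 of them. In the OCI-AML2 selinexor group none of the nuclear subunit genes spread so far, and in the MOLM-13 groups 1 (vehicle) and 2 (selinexor) did. COX6A1, a subunit of complex IV, stood at 22.3, 8.63 and 39.3 CPM with vehicle and 33.4, 27.7 and 32.1 CPM with selinexor in OCI-AML2. SDHA, the flavoprotein of complex II, stood at 12.9, 5.81 and 21.6 CPM with vehicle and 14.3, 17.5 and 20.5 CPM with selinexor. Their selinexor libraries lay within the range of their vehicle libraries. The mitochondrial genes ND4L and ATP8 also spread, and none of the 15 passed the test in OCI-AML2. Without vehicle library 2, ATP5ME (log2 fold change -0.26, adjusted p = 3.0e-07) and NDUFA9 (-0.57, adjusted p = 1.3e-04) passed as falls and SDHA had a log2 fold change of 0.00038. Without vehicle library 3, ATP8 passed as a rise (log2 fold change 1.77, adjusted p = 5.5e-04), where its value with all libraries was 0.60. All 15 share exonic bases with a neighbour or have pseudogenes named after them in GENCODE 29, as do 69 of the 81 nuclear subunit genes. How reads of such genes were assigned is not given in the sources used here, and its part in the spread was not tested.

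**Figure D1:**
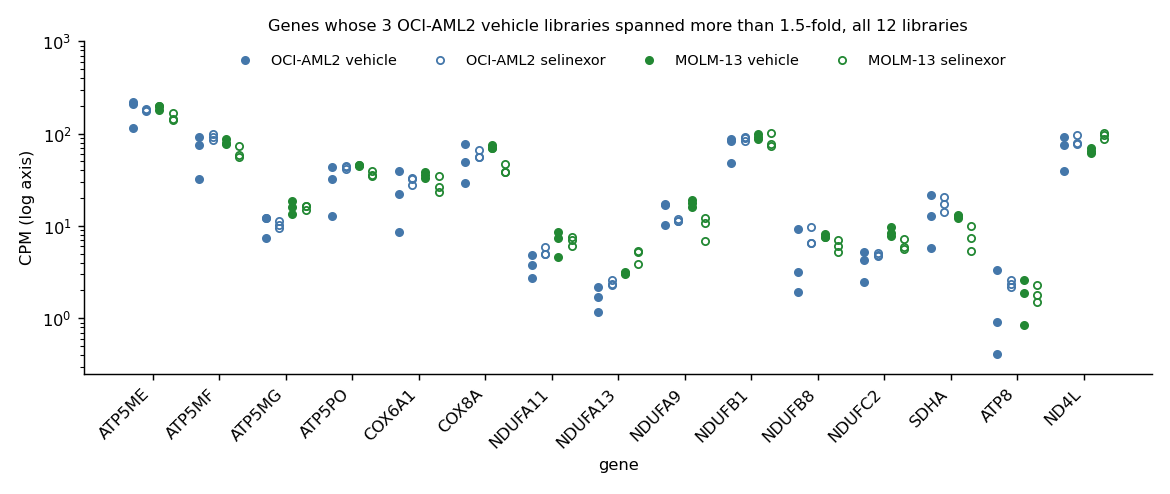
CPM (log axis) of the 15 members whose OCI-AML2 vehicle libraries spanned more than 1.5-fold, with 1 point per library, filled for vehicle and open for selinexor. The spread lies in the OCI-AML2 vehicle points, while for most of these genes the other 3 groups are tight.

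In MOLM-13 the transcripts of the mitochondrial genome took a larger share of the library with selinexor and those of the nuclear subunit genes a smaller one. The 13 mitochondrial genes made up 0.624, 0.663 and 0.676% of all counts in the vehicle libraries and 0.858, 0.924 and 0.906% in the selinexor libraries. The 81 nuclear subunit genes made up 1.48, 1.47 and 1.48% and 1.22, 1.26 and 1.24%. Neither pair of groups overlapped. The ratio of mitochondrial to nuclear member counts, which does not depend on how libraries are scaled, was 0.443 ± 0.0192 with vehicle and 0.721 ± 0.0172 with selinexor (mean ± SD, n = 3), 1.63 times as high. Within complexes the mitochondrial to nuclear ratio was 2.09 times as high in complex III, 1.75 times in complex I, 1.59 times in ATP synthase and 1.46 times in complex IV. In each of these complexes the groups did not overlap. The smallest two-sided p an exact permutation test of 3 against 3 libraries can give is 0.10, so no test of these sums was made.

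In OCI-AML2 the same sums moved less. The mitochondrial genes made up 0.768, 0.833 and 0.815% of counts with vehicle and 0.917, 0.783 and 0.805% with selinexor, and the groups overlapped, with selinexor library 1 the highest. The nuclear subunit genes made up 1.44, 1.37 and 1.48% and 1.3, 1.31 and 1.34%, without overlap. On the CPM scale used for single genes, their sums did overlap. These ran from 13416 to 14657 CPM with vehicle and from 13289 to 13786 CPM with selinexor. The ratio of mitochondrial to nuclear member counts was 0.563 ± 0.0385 with vehicle and 0.634 ± 0.0605 with selinexor, and its groups overlapped.

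**Figure D2:**
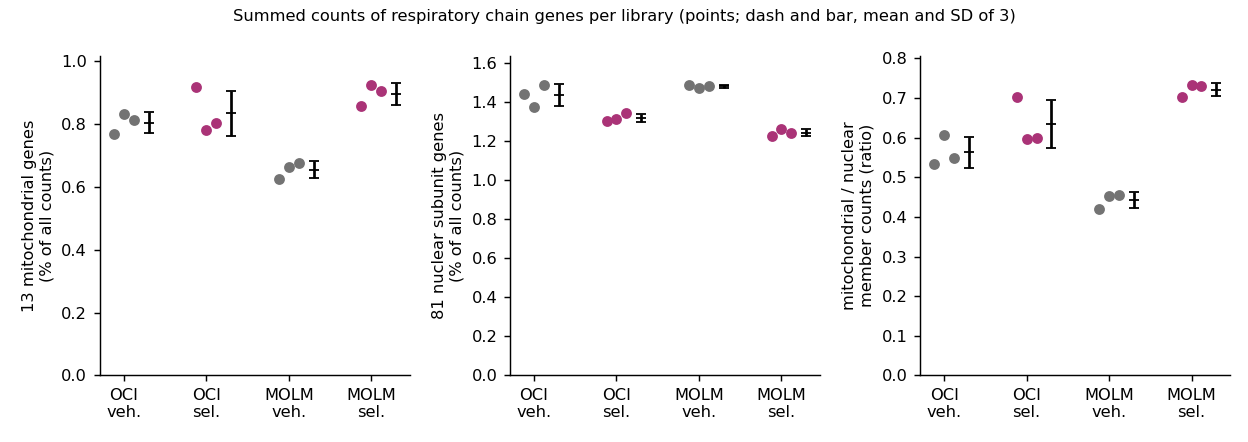
Summed counts of the 13 mitochondrial genes and of the 81 nuclear subunit genes, each as a percent of all counts of the library, and their ratio. Points are libraries, and the dash and bar give the mean and SD of 3. In MOLM-13 the treated libraries lie above those with vehicle for the mitochondrial genes and below them for the nuclear ones, and in OCI-AML2 the mitochondrial sums overlap.

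Gene by gene, 12 of the 13 mitochondrial genes rose in MOLM-13 and none fell (median log2 fold change 0.47), where 31.8% of all 11807 genes tested rose (63.6% passed in either direction), with a median of 0.0091. In edgeR's quasi-likelihood test, used throughout with p-values adjusted over all genes tested in a line (Benjamini-Hochberg), a gene is said to rise or fall where the adjusted p was under 0.05. CYTB, the only mitochondrial subunit of complex III, changed most. It stood at 222, 242 and 247 CPM with vehicle and 412, 432 and 464 CPM with selinexor (log2 fold change 0.88 ± 0.039 (SE, n = 3 per group), adjusted p = 6.8e-35). All 3 treated libraries exceeded every vehicle library, at 1.84 times their level by the fit. Groups without overlap were common in both lines. Of all 11807 genes tested in MOLM-13, the selinexor libraries lay above all vehicle libraries in 3865 and below them in 3874. In OCI-AML2 these were 3989 and 4028 of 12086.

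The 7 mitochondrial subunits of complex I form the core of its proton-pumping membrane arm, and all 7 rose in MOLM-13. ND5, at the far end of that arm, stood at 380.2, 375 and 405 CPM with vehicle and 613, 708 and 658 CPM with selinexor (log2 fold change 0.77 ± 0.038 (SE, n = 3 per group), adjusted p = 1.6e-24). ND4, another of its antiporter-like subunits, stood at 515, 557 and 571 CPM with vehicle and 803, 921 and 867 CPM with selinexor (log2 fold change 0.66 ± 0.041 (SE, n = 3 per group), adjusted p = 2.5e-14). ND6, the only member transcribed from the light strand, stood at 133, 143 and 154 CPM with vehicle and 240.4, 251 and 229 CPM with selinexor (log2 fold change 0.74 ± 0.045 (SE, n = 3 per group), adjusted p = 8.8e-28). In these libraries without strand information its reads cannot be told from antisense RNA of the opposite strand. ND4L, ND2 and ND1 had log2 fold changes of 0.54, 0.49 and 0.47, and ND3 had the smallest of the 7, 0.32. For all 7 genes every treated library exceeded every vehicle library, as for 3865 of all 11807 genes tested. For ND4L alone the call was lost in the joint fit of all 12 libraries (adjusted p = 0.119), which takes in the spread of the OCI-AML2 vehicle libraries.

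The 3 mitochondrial subunits of cytochrome c oxidase form its catalytic core, COX1 with the haem and copper centre that reduces oxygen and COX2 with the copper site that receives electrons from cytochrome c. COX1, the mitochondrial gene with the most counts, stood at 1638, 1767 and 1751 CPM with vehicle and 2229.7, 2457 and 2291 CPM with selinexor in MOLM-13 (log2 fold change 0.44 ± 0.031 (SE, n = 3 per group), adjusted p = 2.8e-21). COX2 rose by 0.45 and COX3 by 0.29 on the log2 scale, all with groups that did not overlap. ATP6, the channel subunit of ATP synthase, stood at 374, 446 and 449.8 CPM with vehicle and 597, 561 and 537 CPM with selinexor and rose by 0.41 (adjusted p = 0.00407). ATP8, its small partner, was the exception at 0.851, 2.63 and 1.88 CPM with vehicle and 2.31, 1.77 and 1.5 CPM with selinexor (log2 fold change 0.040 ± 0.36 (SE, n = 3 per group), adjusted p = 0.932), with overlapping groups.

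ATP8 was read too thinly to follow. Its 6 MOLM-13 libraries held 7 to 24 counts each, although ATP8 and ATP6 lie on the same processed transcript. Per kilobase of gene, the vehicle mean was 8.63 CPM for ATP8 and 622 CPM for ATP6 in MOLM-13. ATP8 lies at chrM:8366-8572 and ATP6 at chrM:8527-9207 (GRCh38, GENCODE 29), so that the last 46 of the 207 bases of ATP8 belong to both reading frames. The gene is shown 5′ to 3′ from the GENCODE 29 transcript, with the shared bases in capitals, since a read touching them has 2 possible genes.
ATP8: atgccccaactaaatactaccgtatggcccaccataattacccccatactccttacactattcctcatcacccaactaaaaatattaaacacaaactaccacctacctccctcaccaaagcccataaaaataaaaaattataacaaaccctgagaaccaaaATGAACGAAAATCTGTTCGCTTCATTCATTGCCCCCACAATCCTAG

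ND4L shares 7 bases with ND4 in the same way, at the end of chrM:10470-10766, and stood at 222 CPM per kilobase beside 397 for ND4 in the MOLM-13 vehicle libraries. On that scale of level per length the order in MOLM-13 vehicle libraries ran from ND3 (1751), COX1 (1114), COX3 (964) and COX2 (886) down to ND4L, ND5 (213), CYTB (208) and ATP8. In OCI-AML2 vehicle libraries COX1 (1635) and COX2 (1527) came first and ND3 (958) stood lower. All 13 genes lack introns, so their lengths are those of the genes.

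In OCI-AML2, 2 mitochondrial genes rose and 1 fell of 13 tested (median log2 fold change 0.10), where 31.3% of all 12086 genes tested rose and 31.8% fell (63.1% in all), with a median of -0.0016. COX2 stood at 1023, 1035 and 1075 CPM with vehicle and 1410.1, 1267 and 1365 CPM with selinexor (log2 fold change 0.37 ± 0.040 (SE, n = 3 per group), adjusted p = 1.0e-10). ND3 stood at 292, 354 and 348 CPM with vehicle and 421, 386 and 434 CPM with selinexor (log2 fold change 0.32 ± 0.084 (SE, n = 3 per group), adjusted p = 0.0151), and its call was lost without selinexor library 1 (log2 fold change 0.30, adjusted p 0.0522). ND2, a membrane-arm subunit of complex I, fell. It stood at 459, 489 and 451 CPM with vehicle and 402, 369.8 and 383 CPM with selinexor (log2 fold change -0.28 ± 0.041 (SE, n = 3 per group), adjusted p = 1.3e-07), the opposite direction to MOLM-13. CYTB, highest in its change in MOLM-13, stood at 316, 369.9 and 372 CPM with vehicle and 433, 360.1 and 356 CPM with selinexor (log2 fold change 0.12 ± 0.11 (SE, n = 3 per group), adjusted p = 0.421), and its groups overlapped. The count of rises was 1 to 4 and that of falls 1 to 3 with a library left out: 1 rise and 3 falls without selinexor library 1, and 4 rises without selinexor library 2.

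Ordered by position on the mitochondrial genome, the changes in MOLM-13 were larger in the last genes. From ND4L to CYTB the log2 fold changes were 0.54, 0.66, 0.77, 0.74 and 0.88, and from ND1 to ND3, with ATP8 left aside, they lay between 0.29 (COX3) and 0.49 (ND2). Across the 13 genes Spearman's rho between order and change was 0.58 in MOLM-13 and 0.066 in OCI-AML2. These 13 points share libraries and, except for ND6, a strand and its precursor RNAs. ND6 was placed by its coordinate although it lies on the opposite strand, and the values are a description.

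**Figure D3:**
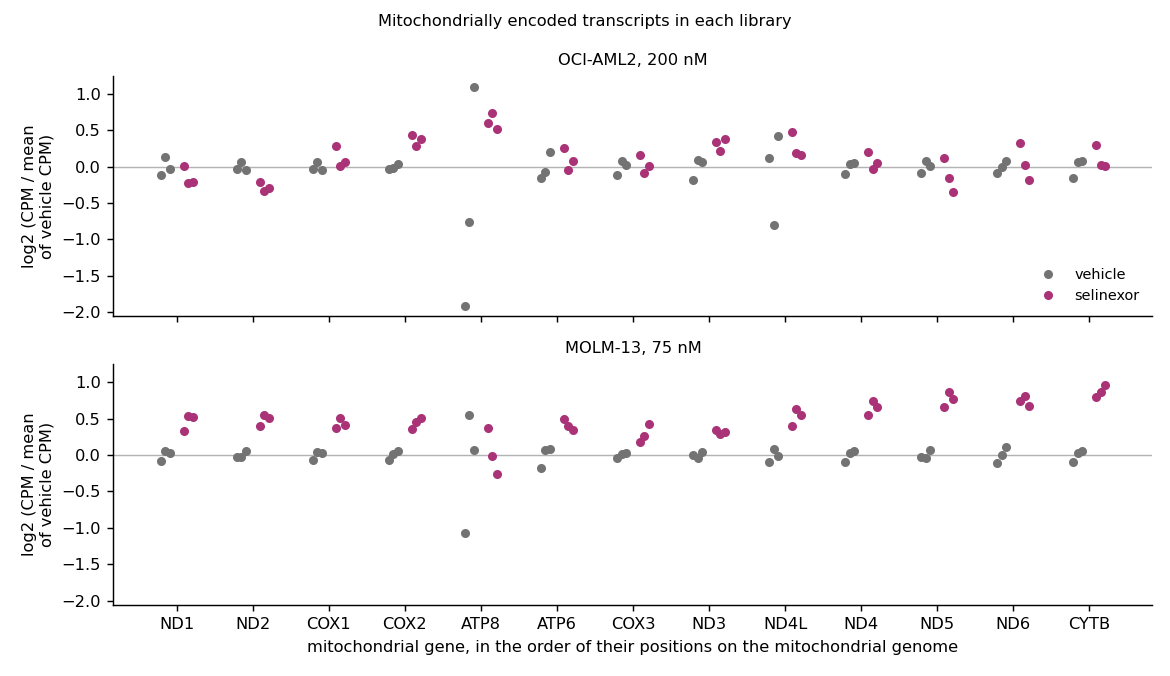
Level of each mitochondrial gene in every library, as log2 of its CPM over the mean of the 3 vehicle libraries, in genome order. Grey points are vehicle and purple points selinexor. In MOLM-13 the purple points lie above the grey ones for every gene but ATP8, with CYTB highest, while in OCI-AML2 they mix for most genes.

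The nuclear subunit genes went mostly down in MOLM-13. Of 77 tested, 53 fell and 5 rose (median log2 fold change -0.24), where 31.8% of all genes tested fell and 31.8% rose. In OCI-AML2, 25 of 76 fell and 14 rose (median -0.0081). The falls were close to the 31.8% of all genes tested, and the rises were below the 31.3%. Of the 76 tested in both lines, 24 fell in both and 3 rose in both (ATP5MC2, NDUFB5 and SDHC). A further 23 fell in MOLM-13 and were not called in OCI-AML2, and 5 rose in OCI-AML2 and fell in MOLM-13 (ATP5PD, NDUFB9, NDUFB10, NDUFV1 and UQCRH). Of these 5, the OCI-AML2 rise was called with any library left out for NDUFB10 alone. That of NDUFB9 was lost without selinexor library 1, selinexor library 2, selinexor library 3, vehicle library 1 or vehicle library 2 (log2 fold change 0.062 to 0.12, adjusted p 0.0513 to 0.263), and those of the other 3 genes as given with each gene. No nuclear subunit gene fell in OCI-AML2 and rose in MOLM-13. Joint calls over all genes were not counted, so these joint counts have no background to be read against. In OCI-AML2 the count of rises was 7 without selinexor library 3 and 22 with upper quartile scaling. The OCI-AML2 median was -0.086 without vehicle library 2 and 0.026 without vehicle library 3.

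**Figure D4:**
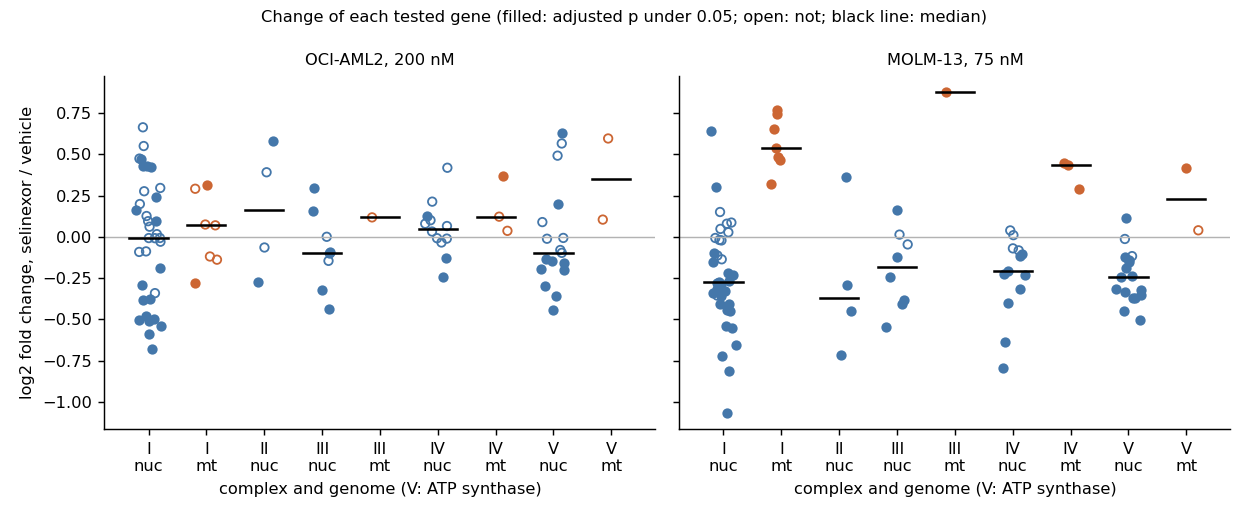
Log2 fold change of every tested member by complex and genome (nuc, nuclear; mt, mitochondrial), in OCI-AML2 on the left and MOLM-13 on the right. Filled points have an adjusted p under 0.05 and black lines are medians. In MOLM-13 the nuclear medians of all 5 complexes lie below 0 and the mitochondrial medians above it.

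In complex I, 22 of 35 nuclear subunit genes fell and 2 rose in MOLM-13 (median -0.28), and 11 fell and 8 rose of 35 in OCI-AML2 (median -0.007). The nuclear core subunits form the arm that holds the flavin, the iron-sulphur clusters and most of the quinone site. Of the 6 tested, 6 fell in MOLM-13 (median -0.41), and 4 fell and 1 rose in OCI-AML2 (median -0.44). NDUFS8, which holds a pair of iron-sulphur clusters near the quinone site, stood at 94.5, 95.7 and 98.3 CPM with vehicle and 65.7, 57.8 and 56.9 CPM with selinexor in OCI-AML2 (log2 fold change -0.68 ± 0.062 (SE, n = 3 per group), adjusted p = 8.1e-13). In MOLM-13 it stood at 81.9, 89.1 and 81.2 CPM with vehicle and 54.8, 53.2 and 64.4 CPM with selinexor (log2 fold change -0.55 ± 0.065 (SE, n = 3 per group), adjusted p = 1.6e-12). NDUFS1, the largest subunit, NDUFS3 and NDUFS7 fell by 0.50, 0.38 and 0.50 on the log2 scale in OCI-AML2 and by 0.41, 0.41 and 0.54 in MOLM-13. NDUFV1, which binds NADH and FMN, fell by 0.27 in MOLM-13 and rose by 0.095 in OCI-AML2 (adjusted p = 0.0448). The OCI-AML2 call was lost without selinexor library 1, selinexor library 3 or vehicle library 1 (log2 fold change 0.061 to 0.090, adjusted p 0.111 to 0.27), with DESeq2 (adjusted p = 0.101), with limma voom (adjusted p = 0.0504) and without a filter (adjusted p = 0.102). NDUFV2 was near 0 in every library, at most 0.721 CPM, and was not tested.

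Of the 29 tested accessory subunits of complex I, which surround and stabilise the core, 16 fell and 2 rose in MOLM-13 (median -0.23), and 7 fell and 7 rose in OCI-AML2 (median 0.016). NDUFA6, an accessory subunit that docks the acyl carrier protein on the matrix arm, had the largest called fall of all subunit genes. It stood at 105, 113 and 113 CPM with vehicle and 53.3, 53.5 and 51.1 CPM with selinexor in MOLM-13 (log2 fold change -1.07 ± 0.061 (SE, n = 3 per group), adjusted p = 1.2e-30), with every selinexor library below every vehicle library. In OCI-AML2 it stood at 116, 114 and 123 CPM with vehicle and 88.4, 96.9 and 86.4 CPM with selinexor (log2 fold change -0.38 ± 0.056 (SE, n = 3 per group), adjusted p = 1.3e-07). NDUFAB1, the mitochondrial acyl carrier protein itself, fell by 0.59 in OCI-AML2 and 0.44 in MOLM-13. NDUFS6, a zinc-binding subunit that sits where the NADH module joins the rest, stood at 324, 339 and 345 CPM with vehicle and 205, 202 and 205 CPM with selinexor in MOLM-13 (log2 fold change -0.72 ± 0.039 (SE, n = 3 per group), adjusted p = 1.7e-32). In OCI-AML2 it stood at 436, 349 and 499 CPM with vehicle and 306, 300.0 and 296 CPM with selinexor (log2 fold change -0.51 ± 0.15 (SE, n = 3 per group), adjusted p = 0.0402). That call was lost without selinexor library 1, selinexor library 2, selinexor library 3 or vehicle library 1 (log2 fold change -0.52 to -0.50, adjusted p 0.107 to 0.119), without a filter (adjusted p = 0.0596) and with upper quartile scaling (adjusted p = 0.0525).

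The NDUFB genes, which encode accessory subunits of the membrane arm, were split in OCI-AML2, where 5 of 11 rose, 1 fell and the others were not called (median 0.24), beside the 31.3% of all genes that rose. In MOLM-13 there were 1 rise and 5 falls (median -0.15). The OCI-AML2 median takes in NDUFB1 and NDUFB8, which were not called and whose log2 fold changes of 0.28 and 0.66 became 0.032 and 0.25 without vehicle library 2. NDUFB5 rose in both lines. It stood at 126, 125 and 128 CPM with vehicle and 167, 181 and 177 CPM with selinexor in OCI-AML2 (log2 fold change 0.47 ± 0.047 (SE, n = 3 per group), adjusted p = 1.0e-11). In MOLM-13 it stood at 85.1, 91.7 and 84 CPM with vehicle and 109, 107 and 106 CPM with selinexor (log2 fold change 0.30 ± 0.055 (SE, n = 3 per group), adjusted p = 1.3e-06). NDUFB11 and NDUFB2 rose by 0.43 and 0.43 in OCI-AML2. In MOLM-13 they had log2 fold changes of 0.080 (adjusted p = 0.123) and 0.087 (adjusted p = 0.156), which passed with upper quartile scaling. NDUFC1 fell by 0.54 in OCI-AML2. In MOLM-13 it fell by 0.28, a call lost without selinexor library 1 (log2 fold change -0.19, adjusted p 0.0585). NDUFA9, which lies beside the quinone-binding site, stood at 17.9, 16 and 19.2 CPM with vehicle and 6.92, 12.2 and 10.9 CPM with selinexor in MOLM-13 (log2 fold change -0.82 ± 0.14 (SE, n = 3 per group), adjusted p = 4.3e-07). NDUFA13 was called as a rise in MOLM-13 on low counts, 3.04, 3.06 and 3.14 CPM with vehicle and 5.42, 3.86 and 5.25 CPM with selinexor (log2 fold change 0.64, adjusted p = 0.0209), and the call was lost without selinexor library 1 or selinexor library 3 (log2 fold change 0.54 to 0.58, adjusted p 0.0642 to 0.0894) and with DESeq2 (adjusted p = 0.0575).

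Complex II, which oxidises succinate and feeds electrons into the chain, has no mitochondrial subunit, and its 4 genes did not move together. SDHC, a membrane anchor that binds haem, rose in both lines. It stood at 157, 145 and 178 CPM with vehicle and 226, 241 and 249.7 CPM with selinexor in OCI-AML2 (log2 fold change 0.58 ± 0.063 (SE, n = 3 per group), adjusted p = 9.9e-07) and at 149, 152 and 159 CPM with vehicle and 200.2, 188 and 206 CPM with selinexor in MOLM-13 (log2 fold change 0.36 ± 0.045 (SE, n = 3 per group), adjusted p = 6.8e-12), with no overlap between groups. SDHB, the iron-sulphur subunit, fell in both. In OCI-AML2 its mean went from 159.6 ± 7.85 CPM down to 132 ± 6.56, and in MOLM-13 from 129 ± 1.93 down to 94 ± 6.44 CPM (± SD, n = 3). SDHD, the other membrane anchor, fell by 0.29 in MOLM-13 and had a log2 fold change of -0.065 in OCI-AML2 (adjusted p = 0.409). Without OCI-AML2 vehicle library 2 it passed as a fall there too (log2 fold change -0.17, adjusted p = 0.00959). SDHA fell in MOLM-13 from 13.2, 12.7 and 12.1 CPM with vehicle to 5.31, 10.1 and 7.5 CPM with selinexor (log2 fold change -0.72 ± 0.16 (SE, n = 3 per group), adjusted p = 7.8e-05). Its counts are low beside those of SDHB to SDHD and its pseudogenes SDHAP1 and SDHAP2 are rows of the same tables, so its level is uncertain. In the joint fit of 12 libraries the SDHA call was lost (adjusted p = 0.228).

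In complex III, 5 of 8 nuclear subunit genes fell and 1 rose in MOLM-13 (median -0.18), and 3 fell and 2 rose in OCI-AML2 (median -0.095). UQCRFS1, the Rieske iron-sulphur protein, fell in both lines. It stood at 242, 204 and 205 CPM with vehicle and 149, 150.3 and 146 CPM with selinexor in MOLM-13 (log2 fold change -0.54 ± 0.048 (SE, n = 3 per group), adjusted p = 3.6e-16) and fell by 0.44 in OCI-AML2. UQCR10, a small supernumerary subunit, fell by 0.38 in MOLM-13 and by 0.32 in OCI-AML2. The core proteins parted: UQCRC1 fell in MOLM-13 from 307, 306 and 309.7 CPM with vehicle to 236, 229 and 230.3 CPM with selinexor (log2 fold change -0.41 ± 0.038 (SE, n = 3 per group), adjusted p = 3.4e-17), and UQCRC2 rose from 198, 191 and 200.1 CPM with vehicle to 222, 218 and 218 CPM with selinexor (log2 fold change 0.16 ± 0.041 (SE, n = 3 per group), adjusted p = 4.4e-04). In OCI-AML2 UQCRC1 only just passed (log2 fold change -0.089, adjusted p = 0.0499), and its call was lost without selinexor library 1, selinexor library 2, vehicle library 2 or vehicle library 3 (log2 fold change -0.087 to -0.065, adjusted p 0.0889 to 0.237) and under 5 other settings (DESeq2, DESeq2 size factors, limma voom, upper quartile scaling and the joint fit). UQCRH, the hinge protein that binds cytochrome c1, stood at 372, 316 and 406 CPM with vehicle and 441, 441 and 463 CPM with selinexor in OCI-AML2 (log2 fold change 0.30 ± 0.098 (SE, n = 3 per group), adjusted p = 0.0448), a call lost without selinexor library 1, selinexor library 2, selinexor library 3 or vehicle library 1 (log2 fold change 0.28 to 0.31, adjusted p 0.1 to 0.121). In MOLM-13 it fell by 0.12 (adjusted p = 0.00261), which was lost with upper quartile scaling (adjusted p = 0.225) and in the joint fit (adjusted p = 0.152). UQCRB rose by 0.15 in OCI-AML2, and that call was lost without selinexor library 3 or vehicle library 2 (log2 fold change 0.082 to 0.13, adjusted p 0.0596 to 0.074).

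In complex IV, 9 of 13 nuclear subunit genes fell and none rose in MOLM-13 (median -0.21), and 2 fell and 1 rose of 12 in OCI-AML2 (median 0.049). COX8A, the smallest subunit, stood at 70.6, 69.3 and 76.1 CPM with vehicle and 38.4, 47 and 38.5 CPM with selinexor in MOLM-13 (log2 fold change -0.80 ± 0.073 (SE, n = 3 per group), adjusted p = 9.0e-18), so that all 3 selinexor libraries lay below the vehicle libraries. In OCI-AML2 its vehicle libraries spread from 29.1 to 76.7 CPM, around the selinexor libraries at 56, 55.5 and 67.3 CPM. COX7B, a supernumerary membrane subunit, fell in both lines, by 0.40 in MOLM-13 and 0.24 in OCI-AML2. COX4I1, the ubiquitous isoform of the regulatory subunit IV, stood at 659, 597 and 709 CPM with vehicle and 722, 694 and 733 CPM with selinexor in OCI-AML2 (log2 fold change 0.13 ± 0.048 (SE, n = 3 per group), adjusted p = 0.0222), with overlapping groups, and was lost without selinexor library 1, selinexor library 3, vehicle library 1 or vehicle library 2 (log2 fold change 0.062 to 0.13, adjusted p 0.0522 to 0.157). COX7C fell by 0.13 in OCI-AML2, a call lost with upper quartile scaling and in the joint fit (adjusted p = 0.0988 and 0.0559). In MOLM-13 its fall of 0.10 was lost without selinexor library 1, selinexor library 3 or vehicle library 3 (log2 fold change -0.087 to -0.072, adjusted p 0.0778 to 0.114), with DESeq2 (adjusted p = 0.0557) and with upper quartile scaling (adjusted p = 0.459).

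Of the paired isoforms of cytochrome c oxidase, the ubiquitous or liver forms were the ones detected. The testis isoform COX6B2 and the heart and muscle isoform COX7A1 were at most 0.359 and 0.50 CPM in any library and were not tested. COX6B1 had log2 fold changes of -0.0083 and 0.010 in OCI-AML2 and MOLM-13 (adjusted p = 0.883 and 0.833). COX7A2 fell by 0.23 in MOLM-13, where its relative COX7A2L, which joins complexes III and IV into supercomplexes, had a log2 fold change of 0.039 (adjusted p = 0.526). COX6A1 fell by 0.31 in MOLM-13, a call lost without selinexor library 3 (log2 fold change -0.20, adjusted p 0.0698) and in the joint fit (adjusted p = 0.545). NDUFA4L2, a hypoxia-responsive relative of NDUFA4, stood at 10.3, 14.4 and 12.7 CPM with vehicle and 7.61, 9.07 and 7.37 CPM with selinexor in MOLM-13 (log2 fold change -0.64 ± 0.16 (SE, n = 3 per group), adjusted p = 2.8e-04). Its highest library reached 1.26 CPM in OCI-AML2, where it was not tested. NDUFA4 itself had log2 fold changes of 0.10 and -0.082 in OCI-AML2 and MOLM-13 (adjusted p = 0.0737 and 0.144). In OCI-AML2 it passed as a rise with upper quartile scaling (log2 fold change 0.16, adjusted p = 0.00556), in the joint fit (log2 fold change 0.14, adjusted p = 0.00802), without vehicle library 1 (log2 fold change 0.13, adjusted p = 0.0325) and without vehicle library 3 (log2 fold change 0.13, adjusted p = 0.0375). With each library left out in turn its value was 0.030 to 0.13.

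In ATP synthase, 14 of 17 nuclear subunit genes fell and 1 rose in MOLM-13 (median -0.24), and 8 fell and 2 rose in OCI-AML2 (median -0.097). All 5 genes of the F1 head and its shaft (ATP5F1A to ATP5F1E) fell in both lines, with medians of -0.30 in OCI-AML2 and -0.24 in MOLM-13 and groups that did not overlap. ATP5F1B, the catalytic beta subunit, stood at 1398, 1490.3 and 1400.4 CPM with vehicle and 1075, 1024 and 1050.5 CPM with selinexor in OCI-AML2 (log2 fold change -0.45 ± 0.039 (SE, n = 3 per group), adjusted p = 1.5e-13). In MOLM-13 it stood at 1782, 1758 and 1741 CPM with vehicle and 1394, 1406 and 1419 CPM with selinexor (log2 fold change -0.32 ± 0.029 (SE, n = 3 per group), adjusted p = 2.4e-18). ATP5F1A, the alpha subunit beside it in the head, fell by 0.30 in OCI-AML2 and 0.19 in MOLM-13. ATP5F1E, the epsilon subunit of the shaft, fell by 0.36 in OCI-AML2 and 0.14 in MOLM-13, and the latter was not called with upper quartile scaling (log2 fold change -0.069, adjusted p = 0.159). Nor was ATP5F1D, the delta subunit of the shaft, in OCI-AML2 with that scaling (log2 fold change -0.089, adjusted p = 0.0669).

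The 3 genes ATP5MC1, ATP5MC2 and ATP5MC3 encode the same mature protein, subunit c of the rotating membrane ring, behind different import signals, and they moved apart. ATP5MC3 stood at 373, 377 and 384 CPM with vehicle and 279.9, 263 and 258 CPM with selinexor in MOLM-13 (log2 fold change -0.50 ± 0.037 (SE, n = 3 per group), adjusted p = 7.4e-23). ATP5MC1 fell by 0.45 in MOLM-13 and 0.20 in OCI-AML2. ATP5MC2 rose. It stood at 279.9, 276 and 289.6 CPM with vehicle and 316, 317 and 338 CPM with selinexor in OCI-AML2 (log2 fold change 0.20 ± 0.041 (SE, n = 3 per group), adjusted p = 4.1e-05) and at 334, 361 and 358 CPM with vehicle and 376, 409 and 353 CPM with selinexor in MOLM-13 (log2 fold change 0.11 ± 0.039 (SE, n = 3 per group), adjusted p = 0.00958). The MOLM-13 groups of ATP5MC2 overlapped, and the call was lost without selinexor library 2 or vehicle library 1 (log2 fold change 0.054 to 0.076, adjusted p 0.111 to 0.26) and with DESeq2 (adjusted p = 0.0556). ATP5PD, a subunit of the peripheral stalk, went in opposite directions. It stood at 117, 90.4 and 132 CPM with vehicle and 182, 168 and 173 CPM with selinexor in OCI-AML2 (log2 fold change 0.63 ± 0.16 (SE, n = 3 per group), adjusted p = 0.0232), and that call was lost without selinexor library 1, selinexor library 2, selinexor library 3 or vehicle library 1 (log2 fold change 0.59 to 0.65, adjusted p 0.0641 to 0.0791). In MOLM-13 it stood at 153, 158 and 166 CPM with vehicle and 132, 124 and 124 CPM with selinexor (log2 fold change -0.33 ± 0.048 (SE, n = 3 per group), adjusted p = 1.7e-09).

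Whether the lines responded differently was tested with an interaction term in a fit of all 12 libraries, signed as the change in MOLM-13 minus that in OCI-AML2. The 12 libraries were scaled jointly, so a term need not equal the difference of the changes fitted in each line alone. Of 77 nuclear subunit genes, 37 had a lower change in MOLM-13 and 0 a higher one, where 19% of all 12530 genes tested were called as lower and 11.1% as higher (30.1% in all). Of the 13 mitochondrial genes 6 had a higher change in MOLM-13 and 0 a lower one. These were ND5 (0.84 ± 0.15 (SE), adjusted p = 0.00317), ND2 (0.72 ± 0.056 (SE), adjusted p = 8.6e-19), CYTB (0.71 ± 0.13 (SE), adjusted p = 0.00371), ND6 (0.63 ± 0.17 (SE), adjusted p = 0.0209), ND1 (0.56 ± 0.13 (SE), adjusted p = 0.0111) and ND4 (0.53 ± 0.10 (SE), adjusted p = 0.00203). All encode complex I subunits but CYTB, and none of the 3 COX genes was among them. COX1 (0.27 ± 0.099 (SE), adjusted p = 0.0707) did pass with DESeq2 (adjusted p = 0.022), with its size factors (0.0445), without a filter (1.9e-05), with upper quartile scaling (0.0222) and with factors within each line (0.0413). It also passed without OCI-AML2 vehicle library 1 or 3, OCI-AML2 selinexor library 1 or 2, or MOLM-13 vehicle library 2 (adjusted p 6.7e-07 to 0.046). ATP8 passed as lower in MOLM-13 without OCI-AML2 vehicle library 3 (difference -1.69, adjusted p = 0.0249). The call of ND6 was lost without MOLM-13 selinexor library 2, MOLM-13 vehicle library 1 or OCI-AML2 selinexor library 2 (log2 fold change 0.57 to 0.60, adjusted p 0.0502 to 0.0507).

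The largest called differences of nuclear genes were those of ATP5PD (-1.01 ± 0.16 (SE), adjusted p = 0.00154), NDUFC2 (-0.80 ± 0.30 (SE), adjusted p = 0.0325) and NDUFA6 (-0.74 ± 0.082 (SE), adjusted p = 4.3e-12). NDUFC2, an accessory subunit of the membrane arm, rests on low counts, 4.33, 2.49 and 5.2 CPM with vehicle and 4.72, 5.07 and 4.84 CPM with selinexor in OCI-AML2 and 9.72, 8.32 and 7.85 CPM with vehicle and 7.27, 5.94 and 5.62 CPM with selinexor in MOLM-13, and its difference was not called with 8 of the 12 libraries left out in turn (adjusted p 0.0561 to 0.287), namely OCI-AML2 vehicle 1 and 2 and selinexor 2 and 3, and MOLM-13 vehicle 1 and 2 and selinexor 2 and 3. With DESeq2 it was not called either (adjusted p = 0.0836). The counts depend on how the libraries are scaled. In the joint fit the median change over all genes was 0.039 in OCI-AML2 and 0.0023 in MOLM-13. In the fits of each line alone it was -0.0016 and 0.0091. The median difference over all genes was -0.040, so the main calls lean towards lower in MOLM-13. The split over all genes of 1388 higher and 2380 lower became 1828 and 1890 with upper quartile scaling and 1720 and 1989 with factors set within each line, an alternative chosen after seeing the data. With the latter, 32 nuclear subunit genes had a lower and 3 a higher change in MOLM-13, and 7 mitochondrial genes a higher one. Leaving out OCI-AML2 vehicle library 2, 19 nuclear subunit genes were lower and 7 higher, and leaving out MOLM-13 vehicle library 2 gave 21 and 5. Without OCI-AML2 vehicle library 1 they were 24 and 6, and without its vehicle library 3 they were 33 and 4. In each of these 4 fits the median difference over all genes was higher by 0.091 to 0.093 on the log2 scale, and more genes were called as higher than as lower (2084 and 1604 without OCI-AML2 vehicle library 2). Across the 76 nuclear subunit genes tested in both lines, Spearman's rho between the lines' log2 fold changes was 0.47, beside 0.72 across all 11202 genes tested in both.

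**Figure D5:**
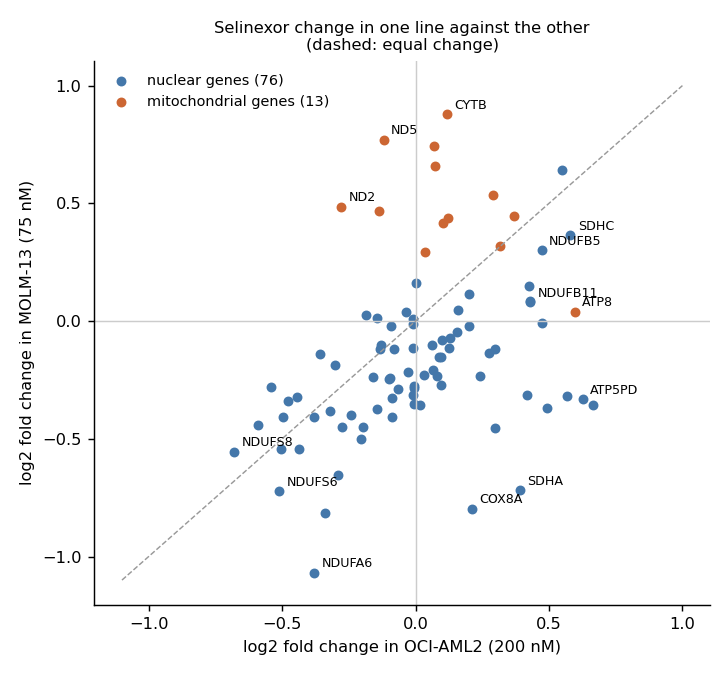
Log2 fold change in MOLM-13 against that in OCI-AML2 for the 76 nuclear (blue) and 13 mitochondrial (orange) members tested in both lines. Most blue points lie below the dashed line of equal change and, with ATP8 as the clear exception, the orange points lie near it or above it. SDHA lies at the lower right.

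Genes that build the complexes were counted in lists of assembly factors, read against the 31.3% and 31.8% of genes that rose and fell in OCI-AML2 and the 31.8% and 31.8% in MOLM-13. Of the complex I assembly factors 3 rose and 6 fell of 17 in OCI-AML2 (median -0.095) and 1 and 6 of 17 in MOLM-13 (median -0.066). NDUFAF4 fell by 0.78 and 0.71 and FOXRED1 by 0.56 and 0.45 on the log2 scale in OCI-AML2 and MOLM-13, the order in which pairs of values are given for the genes that follow. For complexes II and III, 2 rose and 2 fell of 10 in OCI-AML2 (median -0.0078) and 1 and 2 of 10 in MOLM-13 (median 0.015). UQCC2, needed for the translation and assembly of cytochrome b, fell from 58.5 ± 3.35 to 32.3 ± 2.06 CPM with selinexor in MOLM-13 (log2 fold change -0.86 ± 0.079 (SE, n = 3 per group), adjusted p = 1.1e-17), where CYTB itself rose. For complex IV, 5 rose and 9 fell of 23 in OCI-AML2 (median -0.097) and 3 and 9 of 23 in MOLM-13 (median -0.12). CMC2 had the largest falls there, 0.86 and 1.21. COX20, a chaperone of COX2, stood at 94.1, 92.7 and 101 CPM with vehicle and 73.8, 68.7 and 66.4 CPM with selinexor in OCI-AML2 (log2 fold change -0.46, adjusted p = 8.5e-09) and at 79, 86.2 and 86.1 CPM with vehicle and 109.6, 109.6 and 106 CPM with selinexor in MOLM-13 (log2 fold change 0.37, adjusted p = 6.9e-09), opposite in direction. COX15, which makes haem A, rose in both, by 0.64 and 0.36. Of the genes for ATP synthase assembly and inhibition, 2 rose and 2 fell of 5 in OCI-AML2 (median -0.024) and 0 and 1 of 5 in MOLM-13 (median 0.003).

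Cytochrome c, the mobile carrier of electrons between complexes III and IV, fell. Its gene CYCS stood at 504, 404 and 504 CPM with vehicle and 253, 258 and 272 CPM with selinexor in OCI-AML2 (log2 fold change -0.85 ± 0.10 (SE, n = 3 per group), adjusted p = 0.00104) and at 404, 451 and 434 CPM with vehicle and 244, 247 and 231 CPM with selinexor in MOLM-13 (log2 fold change -0.83 ± 0.038 (SE, n = 3 per group), adjusted p = 2.8e-37). CYC1, the cytochrome c1 of complex III, fell by 0.23 and 0.46. In the list of electron carriers and coenzyme Q synthesis, 5 rose and 9 fell of 20 in OCI-AML2 (median -0.12) and 3 and 12 of 20 in MOLM-13 (median -0.32). COQ3, a methyltransferase of coenzyme Q synthesis, fell by 1.15 and 0.83, while COQ8A rose by 0.44 and 0.55.

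Genes that act on mitochondrial DNA and RNA were mostly lower where they were called. For DNA maintenance and transcription, 2 rose and 7 fell of 14 in OCI-AML2 (median -0.22) and 4 and 8 of 15 in MOLM-13 (median -0.18). TFAM stood at 199.7, 185 and 187 CPM with vehicle and 129, 125 and 139.6 CPM with selinexor in MOLM-13 (log2 fold change -0.54 ± 0.046 (SE, n = 3 per group), adjusted p = 3.9e-19) and at 169, 152 and 164 CPM with vehicle and 120.1, 123 and 121 CPM with selinexor in OCI-AML2 (log2 fold change -0.41 ± 0.049 (SE, n = 3 per group), adjusted p = 1.3e-09). POLRMT, the mitochondrial RNA polymerase, fell by 0.58 in OCI-AML2 and 0.18 in MOLM-13. TOP1MT, the mitochondrial topoisomerase, rose by 0.72 and 0.80, and POLG2, the accessory subunit of the DNA polymerase, by 0.55 and 0.76. For mitochondrial RNA processing and stability, 1 rose and 12 fell of 18 in OCI-AML2 (median -0.20) and 2 and 9 of 18 in MOLM-13 (median -0.16). PNPT1, a polynucleotide phosphorylase of the RNA degradosome, stood at 118, 129 and 124 CPM with vehicle and 74.4, 74.8 and 72.2 CPM with selinexor in MOLM-13 (log2 fold change -0.74 ± 0.055 (SE, n = 3 per group), adjusted p = 8.0e-23). In OCI-AML2 it fell by 1.05. SLIRP, which stabilises mitochondrial mRNAs, fell by 0.50 and 0.58, and ELAC2, which cuts the 3′ ends of mitochondrial tRNAs, by 0.67 and 0.37.

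Most mitochondrial ribosomal protein genes fell: 7 rose and 45 fell of 76 in OCI-AML2 (median -0.25) and 5 and 54 of 76 in MOLM-13 (median -0.33). MRPL4 fell by 0.66 and 0.51, MRPL20 by 0.77 and 0.71, and MRPL41 by 0.36 and 0.87. In the list of mitochondrial protein import, 1 rose and 17 fell of 24 in OCI-AML2 (median -0.35) and 5 and 16 of 25 in MOLM-13 (median -0.27). TOMM40, the channel of the outer membrane, stood at 368, 374 and 380.2 CPM with vehicle and 203, 185 and 188 CPM with selinexor in OCI-AML2 (log2 fold change -0.96 ± 0.042 (SE, n = 3 per group), adjusted p = 2.3e-23) and at 264, 263 and 257 CPM with vehicle and 132, 134 and 139 CPM with selinexor in MOLM-13 (log2 fold change -0.95 ± 0.043 (SE, n = 3 per group), adjusted p = 1.8e-38). TIMM10, a chaperone of the intermembrane space, fell by 1.02 and 0.91. The share of falls in both lists exceeded that over all genes in both lines, as a description without a test of the lists.

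Of the regulators of mitochondrial biogenesis, 0 rose and 7 fell of 8 in OCI-AML2 (median -0.49) and 0 and 4 of 7 in MOLM-13 (median -0.21). NRF1, the factor that binds many promoters of subunit genes, stood at 27.7, 25.5 and 26.2 CPM with vehicle and 15, 17.1 and 16.8 CPM with selinexor in OCI-AML2 (log2 fold change -0.69 ± 0.10 (SE, n = 3 per group), adjusted p = 1.5e-07) and at 30.5, 26.8 and 31.7 CPM with vehicle and 19.3, 16.2 and 22.2 CPM with selinexor in MOLM-13 (log2 fold change -0.64 ± 0.10 (SE, n = 3 per group), adjusted p = 7.9e-08). GABPB1, a subunit of GABP, fell by 0.57 and 0.62, and the coactivator PPRC1 by 0.49 and 0.30. Promoters of 68 of the 81 nuclear subunit genes were matched in RefSeq (GRCh38.p14), 4 of them through a synonym, each with 250 bases before and 50 bases after the start of transcription. They were searched on both strands for core motifs of NRF1 (GCATGCGC), GABPA (CCGGAAGT) and YY1 (AAGATGGC). NRF1's motif was found in 13 of 68 (19.1%), GABPA's in 10 (14.7%) and YY1's in 11 (16.2%). Among all 27305 promoters of that length the shares were 3.27%, 4.44% and 3.03%. At least 1 of the 3 was found in 28 subunit promoters (41.2%) and in 9.94% of all. The 27305 were not limited to genes expressed in these cells, and the share among such genes was not counted. A match describes the letters, not a bound site.

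Promoters of 4 members of different behaviour are printed 5′ to 3′ with the motif matches in capitals: NDUFA6 (chr22:42090723-42091022, minus strand), the member with the largest fall, NDUFS6 (chr5:1801157-1801456, plus strand), called as falling in both lines, ATP5MC2 (chr12:53676034-53676333, minus strand), called as rising in both, and ATP5PD (chr17:75046920-75047219, minus strand), opposite in the lines. NDUFA6 holds an NRF1 and a YY1 motif, NDUFS6 an NRF1 motif on the reverse strand, ATP5MC2 an NRF1 motif and ATP5PD a GABPA motif on the reverse strand. These 4 were picked by the behaviour of their genes and for holding a match. That each holds a motif follows from the choice. Whether a motif goes with a change across the members was not tested.
NDUFA6: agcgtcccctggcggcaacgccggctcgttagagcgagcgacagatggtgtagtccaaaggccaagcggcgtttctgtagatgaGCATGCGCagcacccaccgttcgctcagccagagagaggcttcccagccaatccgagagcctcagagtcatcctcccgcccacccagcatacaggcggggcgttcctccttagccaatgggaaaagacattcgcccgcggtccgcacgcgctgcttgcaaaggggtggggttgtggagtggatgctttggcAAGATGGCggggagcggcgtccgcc
NDUFS6: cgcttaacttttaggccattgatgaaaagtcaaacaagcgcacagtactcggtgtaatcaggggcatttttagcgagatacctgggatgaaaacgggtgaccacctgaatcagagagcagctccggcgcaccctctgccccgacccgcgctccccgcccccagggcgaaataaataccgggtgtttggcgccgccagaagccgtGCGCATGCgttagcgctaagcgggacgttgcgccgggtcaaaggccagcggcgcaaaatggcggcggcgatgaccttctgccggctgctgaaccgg
ATP5MC2: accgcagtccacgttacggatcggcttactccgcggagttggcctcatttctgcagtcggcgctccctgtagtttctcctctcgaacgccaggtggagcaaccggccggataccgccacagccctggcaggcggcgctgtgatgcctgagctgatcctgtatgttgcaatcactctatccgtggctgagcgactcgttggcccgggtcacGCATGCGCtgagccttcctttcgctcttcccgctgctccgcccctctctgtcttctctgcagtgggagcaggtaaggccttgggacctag
ATP5PD: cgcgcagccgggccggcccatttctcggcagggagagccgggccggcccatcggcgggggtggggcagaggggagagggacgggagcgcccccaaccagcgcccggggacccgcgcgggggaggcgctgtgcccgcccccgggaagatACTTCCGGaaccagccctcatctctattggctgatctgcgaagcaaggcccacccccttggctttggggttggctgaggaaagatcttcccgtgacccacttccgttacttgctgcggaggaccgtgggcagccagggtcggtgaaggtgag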

How the data were processed

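The authors deposited whole-number counts per gene symbol, 1 table per line with 6 columns headed by treatment letter only; libraries are numbered here in column order. STAR and hg38 are named in the submitters' processing notes. Which program and annotation produced the counts is not given in the sources used here. Other deposited tables were not used. The quasi-likelihood F tests of edgeR 4.0.16 (R 4.3.3) were robust, with TMM scaling and Benjamini-Hochberg adjustment over all genes tested (filterByExpr with a minimum count of 10 and total of 15), on each line alone and over 12 libraries for the interaction. The filter removed genes holding 0.0996% and 0.109% of counts. CPM are TMM-scaled within a line. The fits were tested on simulated data. Alternatives were DESeq2 1.42.0 and its size factors, upper quartile scaling, limma 3.58.1 (voom), no filter, a joint fit, mitochondrial genes left out, each library left out and, chosen after seeing the data, scaling within each line for the interaction. Sequences came from GENCODE 29 and RefSeq.

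Members, lists and motifs were chosen with earlier results of these data known. Named are the 13 mitochondrial and 4 SDH genes, listed isoforms, the 3 largest called rises and falls per line and complex, the 3 largest called differences between lines in each direction, and up to 3 genes by smallest p per list and line. NDUFS1, NDUFS3, NDUFS7, NDUFV1, NDUFV2, NDUFA7, NDUFB1, NDUFB8, NDUFB9, NDUFB10 and ATP5ME were added after their values were seen, as was the grouping of complex I into core and accessory subunits.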

Additional observations from a re-analysis of the deposited data

Results flagged for a closer look

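The selinexor changes of 25 named members differed between the lines by the interaction test over 12 libraries (adjusted p under 0.05). Values are the interaction terms of that fit, signed as the change in MOLM-13 minus that in OCI-AML2. They do not equal the difference of the changes fitted in each line alone, since the 12 libraries were scaled jointly. For NDUFB5 the term was -0.22, and -0.18 with scaling factors set within each line. Mitochondrial genes were all higher in MOLM-13: CYTB 0.71, ND1 0.56, ND2 0.72, ND4 0.53, ND5 0.84 and ND6 0.63. Nuclear genes were all lower in MOLM-13. In complex I they were NDUFA6 -0.74, NDUFB11 -0.40, NDUFB2 -0.39, NDUFB5 -0.22 and NDUFC2 -0.80. In complex II they were SDHB -0.22, SDHC -0.27 and SDHD -0.27, and in complex III UQCRB -0.25, UQCRC1 -0.37 and UQCRH -0.47. In complex IV they were COX4I1 -0.25, COX7A2 -0.36, COX7B -0.21 and NDUFA4 -0.23, and in ATP synthase ATP5F1D -0.28, ATP5MC1 -0.30, ATP5MC3 -0.35 and ATP5PD -1.01. With scaling factors set within each line, COX7B, NDUFB5 and SDHB no longer passed (adjusted p = 0.0752, 0.0542 and 0.0589). The remaining 22 did. With upper quartile scaling COX7B, NDUFA4, NDUFB5, SDHB and SDHD did not pass, and with DESeq2 COX7B, NDUFA4, NDUFB5, NDUFC2, SDHB and SDHD did not. With a library left out, 11 lost their call, here with the libraries by line, group and number. ATP5MC1 was not called without MOLM-13 vehicle 2 or OCI-AML2 vehicle 1 (difference -0.18 to -0.17, adjusted p 0.0703 to 0.103). COX4I1 was not called without MOLM-13 vehicle 2, OCI-AML2 vehicle 1 or OCI-AML2 vehicle 2 (difference -0.17 to -0.092, adjusted p 0.0537 to 0.178). COX7B was not called without MOLM-13 selinexor 2, MOLM-13 vehicle 1, MOLM-13 vehicle 2, OCI-AML2 selinexor 3, OCI-AML2 vehicle 1, OCI-AML2 vehicle 2 or OCI-AML2 vehicle 3 (difference -0.19 to -0.11, adjusted p 0.0575 to 0.267). ND6 was not called without MOLM-13 selinexor 2, MOLM-13 vehicle 1 or OCI-AML2 selinexor 2 (difference 0.57 to 0.60, adjusted p 0.0502 to 0.0507). NDUFA4 was not called without MOLM-13 vehicle 2, MOLM-13 vehicle 3, OCI-AML2 vehicle 1, OCI-AML2 vehicle 2 or OCI-AML2 vehicle 3 (difference -0.18 to -0.073, adjusted p 0.0681 to 0.466). NDUFB5 was not called without MOLM-13 vehicle 2, OCI-AML2 vehicle 1, OCI-AML2 vehicle 2 or OCI-AML2 vehicle 3 (difference -0.14 to -0.089, adjusted p 0.17 to 0.424). NDUFC2 was not called without MOLM-13 selinexor 2, MOLM-13 selinexor 3, MOLM-13 vehicle 1, MOLM-13 vehicle 2, OCI-AML2 selinexor 2, OCI-AML2 selinexor 3, OCI-AML2 vehicle 1 or OCI-AML2 vehicle 2 (difference -0.80 to -0.44, adjusted p 0.0561 to 0.287). SDHB was not called without MOLM-13 selinexor 1, MOLM-13 vehicle 2, OCI-AML2 selinexor 3, OCI-AML2 vehicle 1, OCI-AML2 vehicle 2 or OCI-AML2 vehicle 3 (difference -0.19 to -0.088, adjusted p 0.0686 to 0.4). SDHC was not called without MOLM-13 vehicle 2, OCI-AML2 vehicle 1 or OCI-AML2 vehicle 2 (difference -0.18 to -0.10, adjusted p 0.128 to 0.247). SDHD was not called without MOLM-13 vehicle 2, OCI-AML2 vehicle 2 or OCI-AML2 vehicle 3 (difference -0.22 to -0.084, adjusted p 0.0683 to 0.503). UQCRB was not called without OCI-AML2 vehicle 2 (difference -0.089, adjusted p 0.21). Line and dose cannot be told apart in these differences.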

How the results depend on the processing

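No paired analysis was possible because the count columns carry no replicate numbers, so the replicate block could not be fitted. Over the 114 genes run under these settings (interaction: 54 members), no called change or difference turned its direction. In MOLM-13, nuclear members that rose numbered 3 with DESeq2 and 8 with upper quartile scaling, beside 5. Upper quartile scaling, which raised all genes by 0.070 in the median, gave median log2 fold changes of -0.17 for the nuclear subunit genes, -0.21, -0.30, -0.11, -0.14 and -0.17 for nuclear complexes I to V and 0.51 for mitochondrial complex IV. Without a filter, nuclear complex IV had a median of -0.13 in MOLM-13 and -0.019 in OCI-AML2, and 2 mitochondrial genes fell in OCI-AML2. In OCI-AML2, 22 nuclear members rose both with upper quartile scaling and in the joint fit, where the median of nuclear complex III was -0.040 and -0.052. Nuclear members with a higher change in MOLM-13 numbered 2 with DESeq2 size factors, 1 without a filter, 4 with upper quartile scaling and 3 with factors within each line, beside 0.

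With each library left out in turn, members called ranged as follows: in OCI-AML2, nuclear rises 7 to 18, mitochondrial rises 1 to 4 and falls 1 to 3; for the difference between the lines, nuclear higher 0 to 7 and lower 19 to 38, mitochondrial lower 0 to 1. Medians in OCI-AML2, lowest without vehicle library 2 except in the last of these and highest without vehicle library 3 except in nuclear complex IV, ranged from -0.086 to 0.026 for nuclear subunit genes, -0.083 to 0.31 for complex II, -0.013 to 0.070 for nuclear complex IV and 0.11 to 0.99 for mitochondrial ATP synthase genes. In MOLM-13 the counts of 53 nuclear falls and 12 mitochondrial rises stayed at 44 to 56 and 11 to 12 over the settings. The counts of ATP8, NDUFV2, NDUFA7, COX6B2 and COX7A1 were too low to follow, and the part of read assignment in this was not tested. Apart from nuclear complex IV without a filter, where more genes enter, the cause of these shifts was not tested.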

Other observations

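Rows kept apart from the subunit genes were also measured. UQCRHL, an intronless copy of UQCRH, stood at 7.11, 3.32 and 7.89 CPM with vehicle and 8.85, 9.27 and 10.9 CPM with selinexor in OCI-AML2 (log2 fold change 0.69 ± 0.24 (SE, n = 3 per group), adjusted p = 0.0215) and at 8.14, 7.66 and 6.07 CPM with vehicle and 6.92, 6.15 and 6.0 CPM with selinexor in MOLM-13 (log2 fold change -0.19 ± 0.19 (SE, n = 3 per group), adjusted p = 0.393). Its reads cannot be told from those of UQCRH where the sequences are the same, and it was not called in MOLM-13. The OCI-AML2 call was lost without selinexor library 1, selinexor library 2, selinexor library 3 or vehicle library 2 (log2 fold change 0.36 to 0.74, adjusted p 0.0513 to 0.107). The readthrough ATP5MF-PTCD1 stood at 10.7, 15 and 8.7 CPM with vehicle and 6.49, 6.58 and 6.63 CPM with selinexor in OCI-AML2 (log2 fold change -0.81 ± 0.18 (SE, n = 3 per group), adjusted p = 1.2e-04) and at 8.51, 9.52 and 11.4 CPM with vehicle and 8.53, 7.4 and 8.5 CPM with selinexor in MOLM-13 (log2 fold change -0.28 ± 0.17 (SE, n = 3 per group), adjusted p = 0.139). NDUFB2-AS1, which overlaps NDUFB2 on the opposite strand, stood at 55.6, 72.1 and 48 CPM with vehicle and 68.5, 67.3 and 72.5 CPM with selinexor in OCI-AML2 and at 63.6, 50.2 and 55.5 CPM with vehicle and 59.5, 59.2 and 64.1 CPM with selinexor in MOLM-13, and reads of the pair cannot be assigned to a strand. It was not called in either line, but passed in OCI-AML2 without vehicle library 2 (log2 fold change 0.42, adjusted p = 1.8e-07) and without a filter (adjusted p = 0.00584), and in MOLM-13 without vehicle library 1 (log2 fold change 0.20, adjusted p = 0.0213) and with upper quartile scaling (adjusted p = 0.0197). NDUFA6-DT and NDUFV2-AS1 did not exceed 1.88 and 1.16 CPM, and ATP5MGL did not exceed 0.118 CPM, in any library.

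PPARGC1A, the coactivator of mitochondrial biogenesis, was near the limit of counting in OCI-AML2 at 1.13, 1.74 and 1.17 CPM with vehicle and 0.118, 0.216 and 0.631 CPM with selinexor (log2 fold change -2.01 ± 0.54 (SE, n = 3 per group), adjusted p = 0.00137). It was chosen after its values were seen, as the most negative gene of its list. ATPAF1, which assembles the F1 head, stood at 75.1, 80.3 and 71.8 CPM with vehicle and 56.7, 51.2 and 55.8 CPM with selinexor in OCI-AML2 (log2 fold change -0.47 ± 0.066 (SE, n = 3 per group), adjusted p = 3.6e-08) but only at 1.34, 1.64 and 2.93 CPM with vehicle and 2.19, 2.4 and 2.12 CPM with selinexor in MOLM-13. TMEM70, another ATP synthase assembly factor, fell from 67.1 ± 4.15 to 54.2 ± 4.23 CPM in MOLM-13 (mean ± SD, n = 3). ATP5IF1, which inhibits the reverse action of ATP synthase, rose by 0.43 in OCI-AML2 and had a log2 fold change of 0.003 in MOLM-13 (adjusted p = 0.961). SDHAF4, which assembles the flavoprotein of complex II, stood at 10.0, 9.79 and 9.68 CPM with vehicle and 17.8, 16.1 and 22 CPM with selinexor in OCI-AML2 (log2 fold change 0.92 ± 0.13 (SE, n = 3 per group), adjusted p = 4.4e-08) and had a log2 fold change of 0.089 in MOLM-13 (adjusted p = 0.515).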
